A study of Drosophila melanogaster with 11 samples.

Results

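Messenger RNA of wild-type Drosophila melanogaster embryos collected 2 to 3 h after egg laying was compared with messenger RNA of mature stage 14 oocytes on 4 dual-colour arrays, each an embryo sample hybridised against oocyte RNA. These are 4 of the 11 arrays of the series, taken by their titles. Spots of 1 gene were averaged, the median gene of each array was set to 0, and the 6328 of 6793 named genes with a value on at least 3 of the 4 arrays were tested. Embryos and oocytes were both of the w1118 strain, which carries a white-eye mutation and serves here as wild type. The other arrays were used below for the difference from these embryos and, in alternative fits, for the spread between arrays. They held 2 to 3 h material labelled SMG (3 arrays) or SMGoverDf (1 array) and w1118 unfertilized eggs of 4 to 6 h (3 arrays). The gene smg encodes the RNA-binding protein Smaug. Each of these samples was again set against w1118 stage 14 oocyte RNA. On every embryo array the red dye marked the embryo RNA and the green dye the oocyte RNA, 60 µg of each. On the arrays of unfertilized eggs the dyes were the other way round. None of the embryo arrays had the dyes swapped, so a dye effect and a difference between embryo and oocyte cannot be told apart. The labels do not say whether the 4 samples came from separate collections, so the p-values measure the spread between these 4 arrays, which may be technical.

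A stage 14 oocyte makes little or no RNA of its own and carries messages loaded by the nurse cells during oogenesis. After egg activation many of these maternal messages are degraded, first by factors the mother supplied, among which Smaug brings the CCR4-NOT deadenylase to its targets, and later by factors the embryo makes. In the same period the nuclei divide rapidly without cytokinesis, then become enclosed by membranes in cellularization, and transcription of the zygotic genome starts in earnest, with the genes that lay out the body axes among the first. A 2 to 3 h collection spans these events.

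All values below are log2 ratios of embryo over oocyte, so that 1 is a 2-fold difference, and 0 is the median gene of the array. A change of total messenger RNA per egg is therefore not visible, and in RNA of whole eggs fewer cells of a type and less RNA per cell cannot be told apart. Means are given ± SD over 4 arrays (3 for unfertilized eggs), or over the n given, and a gene rose or fell where the adjusted p (limma's moderated test of the mean against 0, Benjamini-Hochberg over 6328 genes) was under 0.05. The direction of the deposited ratio is not stated in the sources used here and was taken as likely from the stage markers. Of 8 oocyte and maternal markers 6 were on the array, and all 6 fell, with means between -4.12 and -1.01. Of 11 blastoderm markers 4 were on the array (Kr, kni, twi and Sry-alpha), and all 4 rose, with means between 1.34 and 3.94. None of 10 follicle cell and eggshell markers was on the array. A separate list of eggshell and follicle cell genes had 3 tested members, Yp1, Yp2 and Yp3, and all 3 fell. They are the same genes counted above among the oocyte and maternal markers. Carry-over of follicle cells was not tested. Of 10 markers of older embryos 2 were on the array, the muscle gene Mlc2 at 1.11 ± 0.85 (n = 3) and the synaptic gene nSyb at 0.45 ± 0.57 (n = 4), and neither passed the test.

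The 4 arrays were not alike. Replicate 1 had values for 48.9% of its spots, against 81.8% to 99.1% on replicates 2 to 4, and its deposited median lay at -4.01, against -0.15 to 0.14. After centring its gene values also spread more widely, with a median absolute deviation of 0.72 against 0.27 to 0.42. Replicate 1 correlated with the other wild-type arrays at r = 0.46 to 0.61 across genes, and at r = 0.79 with the smg array whose slide number follows its own and whose deposited median was -4.43. The other wild-type pairs correlated at 0.50 to 0.73. Genes are not independent replicates, and these correlations only describe the arrays.

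Embryos differed from oocytes in 750 of 6328 genes (11.9%), of which 152 rose (2.4%) and 598 fell (9.45%). The 152 rises had a median of 1.10 and reached 5.48, and 24 of them were above 2. The 598 falls had a median of -1.19 and reached -4.12, and 67 of them were below -2. All measured arrays lay on the side of the mean for 151 of the risen and 590 of the fallen genes. Without the centring, with replicate 1 at its deposited median, no gene passed and 233 had an unadjusted p under 0.05. Centring on the genes present on all 4 arrays raised the median of all tested genes from 0.01 to 0.13 and gave 249 rises and 533 falls. With the 8 arrays at 2 to 3 h (these and the smg arrays) in 1 fit, called the 8-array fit below, 209 genes passed (52 rises and 157 falls), and with all 11 arrays 407 did (81 and 326). With array weights 1788 passed (584 and 1204). Without replicate 3 or 4 the rises numbered 98 and 81. The gene lists below are given with their counts in the 8-array fit where these differ by over 1.5 times. Over all genes the shares to read them against are 2.4% of rises and 9.45% of falls. For lists measured mainly on all 4 arrays they are 3.02% and 15.9%, since no fall was called among genes on 3 arrays. When each array was left out in turn, 40 of the 164 called genes named by rule lost their call without at least 1 of the 4 arrays, and none of these had a mean above 1.20 or below -1.26.

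**Figure D1:**
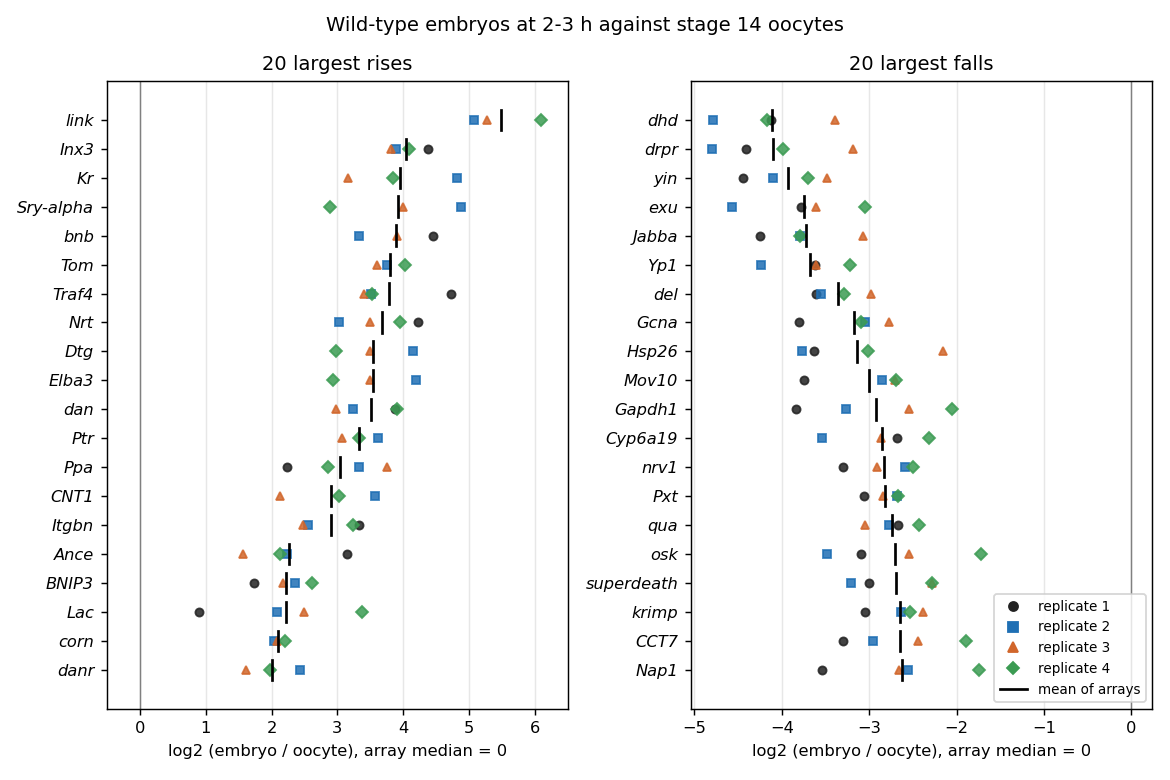
The 20 named genes with the largest rises (left) and the 20 with the largest falls (right). Each point is the log2 ratio of embryo over oocyte on 1 of 4 arrays, with the array median at 0, and the black bar is the mean. The rises run from 2.01 to 5.48 and the falls from -4.12 to -2.63. Of the 20 risen genes 11 have 3 points, and in 10 of them the array without a value is replicate 1.

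Genes of the cellularizing blastoderm had the highest median of the 52 lists. Lists and members were chosen with earlier results of these data known, so this rank is not separate support. The members link, Sry-alpha, bnb and Elba3 are also among the 20 largest rises. Of 6 tested members 5 rose and none fell, with a list median of 3.71 against 0.01 over all genes. The gene link had log2 ratios of 5.06, 5.27 and 6.09 on replicates 2, 3 and 4, with no value on replicate 1, and a mean of 5.48 ± 0.54 (n = 3), a 44.5-fold difference (adjusted p = 7.99e-06). All of its measured arrays were above every array of any other gene named here. Sry-alpha, which organises actin at the furrows between the forming cells, had 4.87, 4.00 and 2.88 on the same arrays and averaged 3.92 ± 1.0. The gene bnb had 4.44, 3.33 and 3.90 on replicates 1, 2 and 3, and a mean of 3.89 ± 0.56 (n = 3). Subunits of the Elba complex, an insulator that works for a short time in the early embryo, differed in size. Elba3 averaged 3.54 ± 0.63 (n = 3) and Elba2 1.07 ± 0.34 (n = 4), and Elba2 did not pass without replicate 3 (0.94, adjusted p = 0.0731). The remaining member, term, had a mean of 0.18 and did not pass.

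Of the 14 tested junction and adhesion genes 5 rose (3 in the 8-array fit) and none fell (median 0.40). Inx3, an innexin subunit of gap junctions, had 4.37, 3.89, 3.81 and 4.09 on the 4 arrays. The values lay between 3.81 and 4.37, and the mean of 4.04 ± 0.25 corresponds to a 16.4-fold difference (adjusted p = 6.16e-06). Its partner Inx2 averaged 1.0 ± 0.52 and Inx7 had 0.51 without passing. Nrt (neurotactin, a transmembrane adhesion protein) had 4.23, 3.02, 3.49 and 3.95, and a mean of 3.67 ± 0.53. Itgbn, the integrin beta-nu subunit, averaged 2.90 ± 0.44, while the integrin alpha genes mew and if had 0.26 and 0.05 and did not pass. The Toll-family receptor 18w averaged 1.26 ± 0.72, with 2.34 on replicate 4 and 0.79 to 1.01 on the others. Genes of the apical and basolateral polarity complexes (crb, dlg1, scrib and l(2)gl) had means between 0.18 and 0.48, and none passed. Inx2 did not pass without replicate 3 or without replicate 4 (adjusted p = 0.067 and 0.0895).

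Of 12 tested neurogenic and proneural genes 6 rose and none fell (median 1.05). Tom, a Bearded-family inhibitor of the Notch pathway, had 3.75, 3.60 and 4.03 on replicates 2 to 4 and a mean of 3.79 ± 0.22 (n = 3). Traf4, an adaptor of the TNF receptor-associated family, had 4.71 on replicate 1 and 3.40 to 3.52 on the other arrays, and a mean of 3.78 ± 0.62. The nuclear factors dan and danr, which are similar in sequence, averaged 3.50 ± 0.46 (n = 4) and 2.01 ± 0.41 (n = 3). Whether each spot also bound the message of the other gene was not tested. The neural precursor genes dpn (1.98 ± 0.68) and nerfin-1 (1.36 ± 0.19, n = 3) rose as well. The 6 members that did not pass had means between 0.09 and 0.75, and l(1)sc, a proneural factor of the achaete-scute complex, was the highest of them.

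Of 10 tested dorsal-ventral and mesoderm genes 6 rose and none fell (median 1.13). Dtg, a target of the ligand Dpp, averaged 3.54 ± 0.58 (n = 3), with 4.15, 3.49 and 2.98 on replicates 2 to 4. Ance, a peptidase made in the dorsal ectoderm, had 3.15, 2.23, 1.57 and 2.12 and a mean of 2.27 ± 0.65. The mesoderm factor twi had 1.82, 0.93, 1.08 and 2.06, which is 1.47 ± 0.55 on average, and the dorsal T-box gene Doc3 1.38 ± 0.21. The BMP-type ligand scw averaged 1.20 ± 0.82 (n = 3) and did not pass without replicate 2 (0.74, adjusted p = 0.186) or without replicate 4 (adjusted p = 0.0597). The gene ush, a cofactor of the GATA factor Pannier, averaged 1.07 ± 0.75 and did not pass without replicate 4 (0.71, adjusted p = 0.0855). Neither dpp itself (0.51) nor the protease gene tld (1.04) passed.

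Segmentation genes rose in part. Of 8 gap and terminal genes 4 rose and none fell (median 0.66), and of 10 pair-rule and segment polarity genes 2 rose (0 in the 8-array fit) and none fell (median 0.39). Kr, the Krüppel zinc-finger repressor of the central embryo, had 4.82, 3.17 and 3.85 on replicates 2 to 4 and a mean of 3.94 ± 0.83 (n = 3), 15.4-fold over the oocyte (adjusted p = 6.29e-05). The gap gene kni averaged 1.34 ± 0.85, and its spots disagreed, with 2 spots at 0.78 and 0.92 and 2 at 1.85 and 1.89. The terminal genes hkb and fkh averaged 1.31 ± 0.37 and 0.87 ± 0.13, and fkh did not pass without replicate 3 (adjusted p = 0.13). Without the centring fkh and sob had -0.13 and -0.20, below 0. The gap gene gt (0.29) and the terminal gene tll (0.00) did not pass. Among the later genes nkd, a Wnt antagonist, averaged 1.24 ± 0.38 and sob, a relative of odd, 0.80 ± 0.24. The POU genes nub (0.69) and pdm2 (0.62) and the pair-rule genes odd (0.56) and opa (0.14) did not pass, and sob did not pass without replicate 3 or without replicate 4 (adjusted p = 0.169 and 0.0586).

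Several of the 20 largest rises belonged to none of these lists. Ptr, a patched-related membrane protein, averaged 3.33 ± 0.27 (n = 3) and CNT1, a nucleoside transporter, 2.91 ± 0.73 (n = 3). Ppa, an F-box protein, had 2.23, 3.33, 3.76 and 2.85 and a mean of 3.04 ± 0.65. BNIP3, a mitophagy receptor, averaged 2.22 ± 0.37 and the microtubule-binding corn 2.10 ± 0.09 (n = 3). Lac, an immunoglobulin-domain protein of septate junctions, averaged 2.21 ± 1.02 and had the widest spread of the 20, with 0.91 on replicate 1 and 3.37 on replicate 4. Among housekeeping lists mRpS34, a mitochondrial ribosomal protein, had 2.03, 1.71 and 2.11 on replicates 2 to 4 and a mean of 1.95 ± 0.21 (n = 3). Dark, the adaptor that activates initiator caspases, averaged 1.12 ± 0.38.

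Of 7 tested germ plasm genes 6 fell (4 in the 8-array fit) and none rose, with a median of -1.64. The gene dhd encodes the thioredoxin Deadhead of the female germ line and had -4.12, -4.79, -3.39 and -4.17, a mean of -4.12 ± 0.57 and a 17.3-fold lower level in embryos (adjusted p = 7.99e-06). Gcna, a germ cell nuclear protein, averaged -3.18 ± 0.44. The posterior determinant osk had -3.09, -3.48, -2.55 and -1.72 and a mean of -2.71 ± 0.77. CycB (-0.93 ± 0.44) and the Argonaute gene aub (-0.83 ± 0.41) fell less, and aub did not pass without replicate 1, 2 or 3 (adjusted p between 0.0548 and 0.137). In the list of maternal axis and mRNA localization genes, which shares osk, 6 of 10 fell (4 in the 8-array fit), none rose and 4 were not called (median -1.43). The bicoid localization gene exu had -3.78, -4.57, -3.61 and -3.05 (mean -3.75 ± 0.63), and its companion swa -2.58, -2.48, -2.45 and -2.19 (mean -2.43 ± 0.16). The translational regulator orb (-1.93 ± 0.60), the posterior homeobox gene cad (-1.62 ± 0.35) and the dynein adaptor egl (-1.24 ± 0.25) also fell. The members stau and grk had 0.18 and 0.33 and did not pass.

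Genes of the piRNA pathway, which silences transposons in the germ line, ranged from falls of over 3 to no call. Of 18 tested members 8 fell (5 in the 8-array fit) and none rose (median -0.62). The nuclear cluster factor del had -3.61, -3.55, -2.98 and -3.29, a mean of -3.36 ± 0.29. The putative RNA helicase Mov10 averaged -3.0 ± 0.51, the nuage Tudor protein krimp -2.65 ± 0.29 and the silencing factor Panx -2.04 ± 0.58. The Argonaute gene piwi had -1.55, -1.80, -1.67 and -1.53, a mean of -1.64 ± 0.12, but its 4 spots formed pairs, with 2 spots both at -2.57 and the others at -0.87 and -0.54. The nuage gene qin averaged -0.91 ± 0.53 and did not pass without replicate 1, 2 or 3 (adjusted p between 0.0604 and 0.111). The 10 members that did not pass spanned -0.71 (shu, a co-chaperone) to 0.41 (Hen1, the piRNA methyltransferase).

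**Figure D2:**
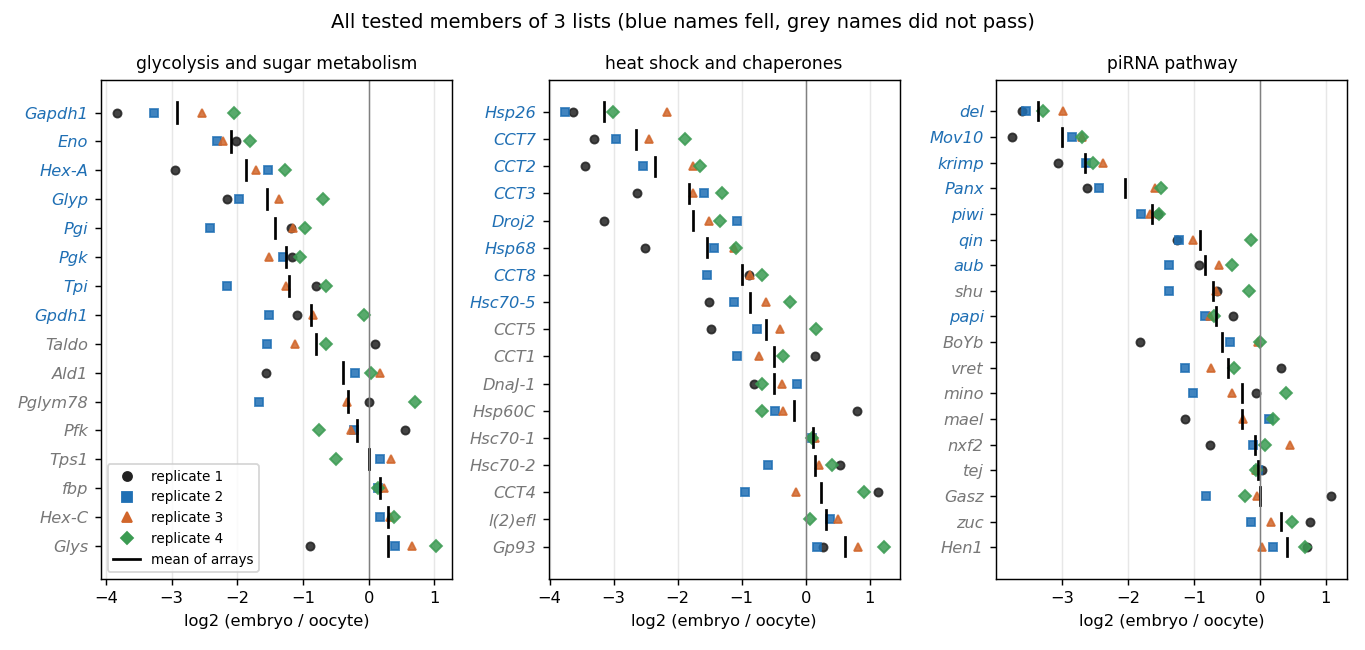
Log2 ratios of embryo over oocyte on each of the 4 arrays for all tested members of 3 lists, with the array median at 0 and the mean as a black bar. Blue names fell (adjusted p under 0.05) and grey names did not pass, and the lists run from -2.92 (Gapdh1), -3.14 (Hsp26) and -3.36 (del) up to means above 0.

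Yolk proteins, which in flies enter the oocyte by uptake of secreted protein, were measured here as RNA and fell. Yp1 had -3.62, -4.23, -3.61 and -3.22 (mean -3.67 ± 0.42), Yp3 averaged -2.39 ± 0.30 and Yp2 -1.01 ± 0.68. The yolk protein receptor yl averaged -1.97 ± 0.59. With these, 4 of 7 yolk uptake genes fell, while the clathrin heavy chain Chc (-0.34) and the dynamin shi (-0.33) did not pass. Yp2 did not pass without replicate 2, 3 or 4 (adjusted p between 0.0801 and 0.114). Yp1 and Yp2 are neighbours and similar in sequence, and binding of each other's message was not tested.

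Of 9 genes for engulfment and scavenger receptors and peroxidases 4 fell strongly and the other 5 stayed between 0.02 and 0.30 without passing. The engulfment receptor drpr had -4.41, -4.80, -3.19 and -3.98, a mean of -4.10 ± 0.69 and a 17.1-fold lower level in embryos. The peroxidase Pxt averaged -2.82 ± 0.18, and the CD36-family receptors pes and crq -2.22 ± 0.47 and -2.08 ± 0.42. The list median was 0.02, close to the 0.01 of all genes, so the 4 falls do not show in it. The oligopeptide transporter yin had -4.44, -4.10, -3.48 and -3.70 (mean -3.93 ± 0.43), and nrv1, a beta subunit of the sodium pump, averaged -2.83 ± 0.36.

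Regulators of the meiotic and early embryonic divisions fell in part. Of 13 egg activation and meiosis genes 4 fell (1 in the 8-array fit) and none rose (median -0.46). These were the meiotic kinesin nod (-1.73 ± 0.34), the mitotic kinase gwl (-1.40 ± 0.65), the nuclear lamina gene fs(1)Ya (-1.05 ± 0.32) and the cytoplasmic poly(A) polymerase wisp (-0.97 ± 0.41). The pan gu kinase subunit genes png and plu had -0.57 and -0.04 and did not pass. Of 19 cell cycle genes 6 fell (1 in the 8-array fit) and none rose (median -0.42), among them the checkpoint kinase lok at -2.07 ± 0.40, Rbf at -1.73 ± 0.54, Cdk2 at -1.48 ± 0.60 and the anaphase-promoting complex activator fzr at -1.09 ± 0.42. Of 21 DNA replication genes 6 fell (2 in the 8-array fit) and none rose (median -0.38), with Gnf1, the large subunit of the clamp loader, at -2.04 ± 0.46, the ligase DNAlig1 at -1.80 ± 0.33, Cdc45 at -1.72 ± 0.68 and RPA1 at -1.63 ± 0.72. The origin recognition genes Orc4 and Orc1 averaged -0.96 ± 0.47 and -0.93 ± 0.52, and each lost its call without 2 of the 4 arrays. The wisp call was lost without replicate 3 (adjusted p = 0.0697).

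Of 24 tested chromatin regulators 6 fell (2 in the 8-array fit) and none rose (median -0.02). Jabba, which anchors stored histones on lipid droplets, had -4.24, -3.79, -3.08 and -3.80, a mean of -3.73 ± 0.48. The histone chaperone Nap1 averaged -2.63 ± 0.73, the embryonic linker histone BigH1 -1.95 ± 0.60, the FACT subunit dre4 -1.73 ± 0.79 and yem, a partner of the H3.3 chaperone Hira, -1.0 ± 0.34. The sixth was the insulator protein CTCF at -0.93 ± 0.50. The second FACT subunit Ssrp (0.43), Hira itself (-0.03) and the nucleosome assembly genes asf1 (0.45) and Caf1-180 (0.15) did not pass. The pioneer factors zld (0.31 ± 0.37) and Trl (0.06 ± 0.21), whose products open early chromatin, did not pass either, and without the centring had -0.69 and -0.95.

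Of 25 genes of mRNA decay and translational repression 2 fell, smg and bel, and none rose (median -0.09). That is close to the 9.45% of all genes that fell. All but 1 of the 25 had values on 4 arrays, however, where a larger share of genes, 15.9%, fell. Neither smg nor bel passed in the 8-array fit. The smg message itself had -2.60, -0.77, -1.44 and -1.12, a mean of -1.48 ± 0.79 (adjusted p = 0.00601), and was lowest on replicate 1. The DEAD-box helicase bel averaged -1.06 ± 0.79 and did not pass without replicate 1 (-0.69, adjusted p = 0.0671). Subunits of the CCR4-NOT deadenylase did not pass, with Pop2 at -0.63, Not3 at -0.59 and Not1 at -0.09, and neither did the translational repressor cup at -0.71.

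Enzymes of glycolysis formed the metabolic list with the most falls, with 8 of 16 tested members down (3 in the 8-array fit) and none up and a median of -0.85. Gapdh1 had -3.84, -3.26, -2.55 and -2.05 and a mean of -2.92 ± 0.79, 7.59-fold lower in embryos. The enolase Eno had -2.02, -2.31, -2.22 and -1.82 (mean -2.09 ± 0.22), the hexokinase Hex-A averaged -1.87 ± 0.74, the glycogen phosphorylase Glyp -1.55 ± 0.66, Pgi -1.43 ± 0.66 and Pgk -1.26 ± 0.20. The committing enzyme Pfk (-0.17), the aldolase Ald1 (-0.39) and Pglym78 (-0.32) did not pass. Of 10 genes listed under the tricarboxylic acid cycle 2 fell (0 in the 8-array fit), Idh3a at -1.19 ± 0.36 and Mdh1 at -0.74 ± 0.38. Mdh1 encodes the cytosolic malate dehydrogenase, not the mitochondrial enzyme of the cycle. It did not pass without replicate 2, 3 or 4 (adjusted p between 0.128 and 0.207). Of 37 oxidative phosphorylation genes 3 fell (0 in the 8-array fit) and none rose (median 0.02), close to the 9.45% of all genes that fell. Of these 37 genes 14 had values on 3 arrays, where no fall was called. The 3 encode subunits of the ATP synthase: ATPsynC (-1.12 ± 0.45), ATPsynbeta (-0.98 ± 0.74) and ATPsyngamma (-0.87 ± 0.31). Whether ATP synthase genes differ from the rest of the list was not tested. ATPsynbeta did not pass without replicate 1 (adjusted p = 0.107) nor ATPsyngamma without replicate 3 (adjusted p = 0.217).

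Chaperones fell in 8 of 17 cases (3 in the 8-array fit) with no rise (median -0.62). The small heat shock gene Hsp26, which ovaries express without heat, had -3.63, -3.77, -2.16 and -3.01 (mean -3.14 ± 0.73). Subunits of the chaperonin CCT, which folds actin and tubulin, differed among themselves. CCT7 averaged -2.65 ± 0.62, CCT2 -2.35 ± 0.83 and CCT3 -1.83 ± 0.57, whereas CCT5 (-0.62), CCT1 (-0.50) and CCT4 (0.24) did not pass. The co-chaperone Droj2 averaged -1.77 ± 0.94, with -3.14 on replicate 1 and -1.52 to -1.08 on the others.

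Of 29 tested proteasome genes 7 fell (1 in the 8-array fit) and none rose, and the list median was 0.02. The 7 all belong to the regulatory particle that caps the proteolytic core, where Rpn11 averaged -1.80 ± 0.71, Rpn8 -1.59 ± 0.44, Rpn7 -1.24 ± 0.35, Rpn5 -1.11 ± 0.28 and Rpn3 -0.94 ± 0.36. These 5 are lid subunits, while Rpt3 (-1.26 ± 1.08) belongs to the ATPase ring of the base and Rpn13 (-0.68) is a ubiquitin receptor there. Among the genes of the core, named Prosalpha and Prosbeta, none passed, and their means ran from -0.69 to 0.76. The difference between regulatory and core genes was not tested. Rpt3 did not pass without replicate 1 (-0.77, adjusted p = 0.0696), and the spots of Rpn3 disagreed, at -1.32 and -1.29 for 2 and -0.32 and -0.14 for the others.

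Of the cytoskeletal genes the gamma-tubulin complex subunit Grip84 (-2.34 ± 0.71), the microtubule polymerase msps (-1.75 ± 0.80), Klc (-1.40 ± 0.74) and Klp10A (-1.35 ± 0.35) fell, and of 21 microtubule, centrosome and spindle genes 7 fell and 1 rose (2 and 0 in the 8-array fit, median -0.41). The 1 rise was the tubulin betaTub56D at 0.99. The villin-like actin bundler qua, which nurse cells use to transfer cytoplasm, had -2.67, -2.78, -3.05 and -2.44 (mean -2.73 ± 0.25). In transport, the coatomer subunit alphaCOP averaged -2.37 ± 0.57 and the exocyst subunit Sec15 -1.73 ± 0.35, and 4 of 20 genes fell (2 in the 8-array fit, median -0.37). All but 3 of the 20 had values on 4 arrays, where 15.9% of all genes fell. Of 10 vacuolar ATPase genes 4 fell (1 in the 8-array fit, median -0.42), the cytosolic V1 subunits Vha55 (-1.66 ± 0.23), Vha44 (-1.42 ± 0.58) and VhaSFD (-0.93 ± 0.31) and the accessory subunit VhaAC45 (-0.92 ± 0.55). The VhaAC45 call was lost without replicate 1 or 3 (adjusted p = 0.0656 and 0.0674).

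None of 19 cytosolic ribosomal protein genes passed, with means between -0.45 and 0.61 and a median of 0.15. Of 46 mitochondrial ribosomal protein genes 2 rose and 4 fell (1 and 1 in the 8-array fit, median -0.03), close to the 2.4% and 9.45% of all genes, mRpS29 being the lowest at -1.32 ± 0.32. Of these 46 genes 13 had values on 3 arrays, where no fall was called. Of 30 translation factors 6 fell (0 in the 8-array fit) and none rose (median 0.13), with the release factor eRF3 at -1.46 ± 0.28 and the initiation factors eIF4G2 at -1.30 ± 0.36 and eIF2Bdelta at -1.16 ± 0.25. All but 2 of the 30 had values on 4 arrays, where 15.9% of all genes fell. Of 37 genes of polymerase II and general transcription 1 fell (0 in the 8-array fit), Taf11 at -1.33 ± 0.71.

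In 7 of the 52 lists no gene passed limma's test, and of their 91 tested genes 5 were higher and 1 was lower at an unadjusted p under 0.05. Beside cytosolic ribosomal proteins these included 29 cuticle protein genes (median -0.01), 15 odorant, gustatory and odorant-binding genes (median 0.18), 12 late muscle, nerve and gut genes (median 0.20) and 13 Rab GTPases (median 0.02). Of these 27 cuticle, 8 odorant-group and 8 late genes had values on 3 arrays, where no fall was called in any of 2556 genes, so the missing falls do not set these lists apart. Among 65 cytochrome P450 genes 3 fell (1 in the 8-array fit), and 62 stayed between -0.79 and 0.60 without passing. Of these 65 genes 49 had values on 3 arrays. The 1 large fall, Cyp6a19 at -2.85 ± 0.51, rested on spots at -4.16, -3.95, -1.66 and -1.65. A fall was called in 37 lists and a rise in 13 (27 and 6 in the 8-array fit), where over all genes falls were called more often than rises (598 against 152).

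**Figure D3:**
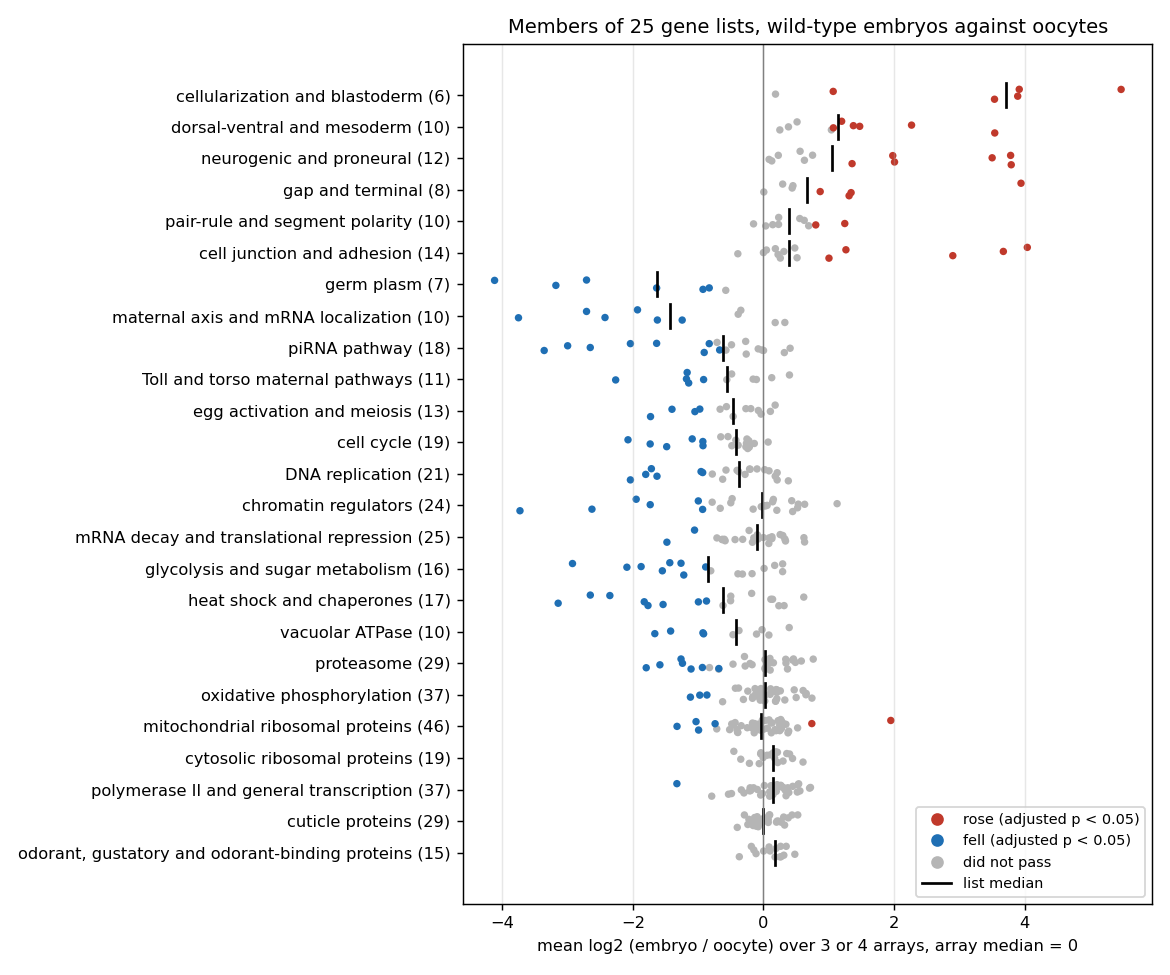
Mean log2 ratio of embryo over oocyte for every tested member of 25 lists, with the number tested in brackets and the list median as a black bar. Red points rose, blue points fell and grey points did not pass. Red points lie mainly in the 6 lists at the top and blue points in the maternal and metabolic lists, while ribosomal, cuticle and odorant genes lie around 0.

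Falls were called among genes that replicate 1 had measured. Of the 3772 genes with a value on all 4 arrays 114 rose (3.02%) and 598 fell (15.9%). Of the 2556 genes with a value on 3 arrays, 2505 of which lacked replicate 1, 38 rose (1.49%) and none fell (0.0%), with 144 higher and 6 lower at an unadjusted p under 0.05. The same held when replicate 1 was left out of the test: among the 3823 genes it measured 137 rose and 609 fell on the other arrays, and among the 2960 it did not measure 59 rose and 2 fell. On replicates 2 to 4 the genes with a value on replicate 1 had a median of -0.15 and those without one a median of 0.08. Signal intensities were not used here, so whether the missing spots were dim in the oocyte channel was not tested.

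**Figure D4:**
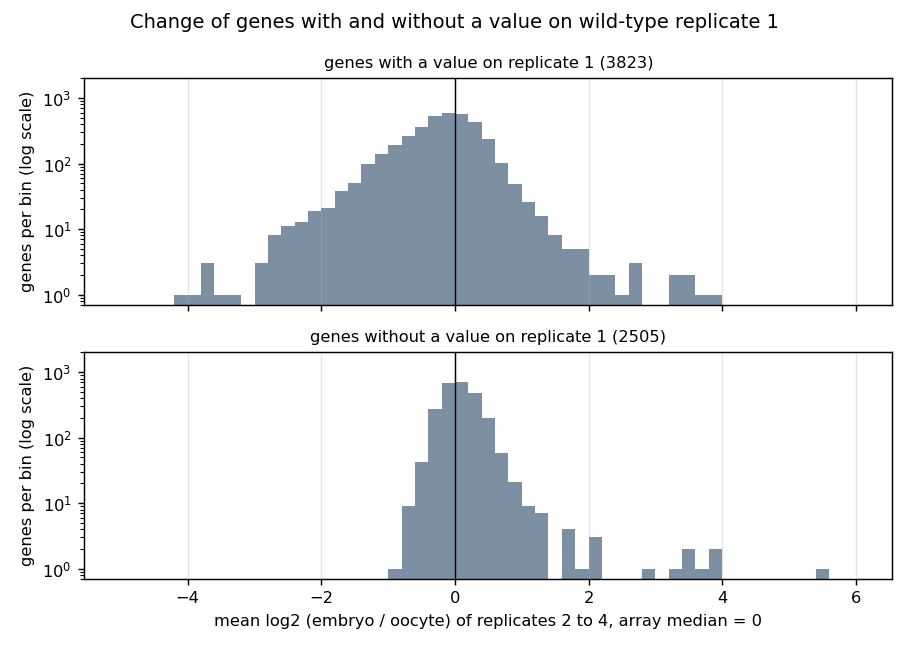
Number of genes by their mean log2 ratio of embryo over oocyte on replicates 2 to 4, in bins of 0.2 with a log scale of counts, for the 3823 tested genes with a value on replicate 1 (top) and the 2505 without one (bottom). The lower tail of falls is present in the top panel and missing from the bottom one, while rises above 2 occur in both.

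Spots with no single gene name were tested apart and stay unnamed. Of 10012 such spots 199 were higher (1.99%) and 520 were lower (5.19%) in embryos than in oocytes, and leaving out 1 array gave 133 to 257 higher and 390 to 452 lower spots. Spots of 1 gene are not independent of each other.

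The series asks whether the changes of these embryos need Smaug, and the arrays of smg material at the same age give the contrast. The smg message itself had -2.60 to -0.77 in wild-type embryos, against -2.66, -1.18, 2.02 and 0.21 on the smg arrays, and the groups overlapped, so this message does not check the genotype labels. Replicate 3 of smg correlated at r = -0.49 across genes with wild-type replicate 1 and at -0.51 with smg replicate 1, although the labels give all of them the same dyes. Of 5791 genes tested 5 were higher (0.0863%) and 11 were lower (0.19%) in wild-type than in smg embryos. The slides were split here by slide number into an earlier (lower) and a later (higher) set, which no label names. With this slide set as a term 235 passed (21 higher and 214 lower), and with all 11 arrays in 1 fit 71 did (17 and 54). Inx3 averaged 4.04 ± 0.25 in wild type and 0.99 ± 0.49 in smg (difference 3.05, adjusted p = 0.0133), and Nrt, dan and Itgbn were higher in wild type by 2.46, 2.47 and 2.29. In each of these genes all 4 wild-type arrays were above all 4 smg arrays. The genes are given because this test called them on the same arrays, so the separation is not separate support. The germ line thioredoxin gene dhd averaged -4.12 ± 0.57 in wild type, against 0.50 ± 1.53 in smg, where the arrays had -0.87, -0.56, 2.45 and 0.98 (difference -4.62, adjusted p = 0.0156). The genes drpr (-4.45), del (-4.25), Gcna (-4.11), Jabba (-3.96), Pxt (-3.48), superdeath (-3.22), pes (-2.95), yl (-2.44) and piwi (-2.37) were lower in wild type by the differences given. For Yp1, with -3.67 ± 0.42 in wild type and -3.47 ± 0.49 in smg, and yin, with -3.93 ± 0.43 in wild type and -3.04 ± 1.06 in smg, the difference did not pass (adjusted p = 0.98 and 0.636).

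These counts rest on single arrays. Without wild-type replicate 1, 2 or 4 no gene passed (515, 380 and 514 at an unadjusted p under 0.05), and without replicate 3 there were 3. Without smg replicate 1 there were 209, without replicate 3 there were 29, and without replicate 2 or 4 there was 1. With the sign of smg replicate 3 turned 2 genes passed, both higher in wild type, and without both arrays of low deposited median none did (872 unadjusted).

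Set against unfertilized eggs of 4 to 6 h, 58 of 6322 genes were higher (0.917%) and 10 were lower (0.158%) in wild-type embryos. With all 11 arrays in 1 fit 19 were higher and none was lower (55 lower at an unadjusted p under 0.05 in limma), so no lower call named below was kept. The embryo arrays are those of the comparison with oocytes, so a difference in a gene named for its large rise there is not separate support. For link the embryo mean was 5.48 ± 0.54 (n = 3) and the unfertilized arrays had -0.05, 0.05 and -0.11, and for Inx3 the embryo mean was 4.04 ± 0.25 and the unfertilized arrays had -0.08, -0.57 and -0.18. The maternal messages dhd, drpr and Jabba averaged -4.12, -4.10 and -3.73 in embryos, against -3.12, -3.45 and -2.83 in unfertilized eggs, and these differences did not pass (adjusted p = 0.385, 0.595 and 0.259). Lower in embryos were swa, at -2.43 ± 0.16 in embryos with -0.68, -0.31 and -0.41 in unfertilized eggs (difference -1.96, adjusted p = 0.000888), exu (difference -1.84), Tsp66E (-1.39) and nrv1 (-1.37). The unfertilized samples differ in age, in fertilization and in labelling, with the sample in the green dye and the oocyte in the red one, and these cannot be told apart. Leaving out 1 array gave between 22 and 94 higher and between 2 and 19 lower genes, and the most were seen without embryo replicate 1.

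**Figure D5:**
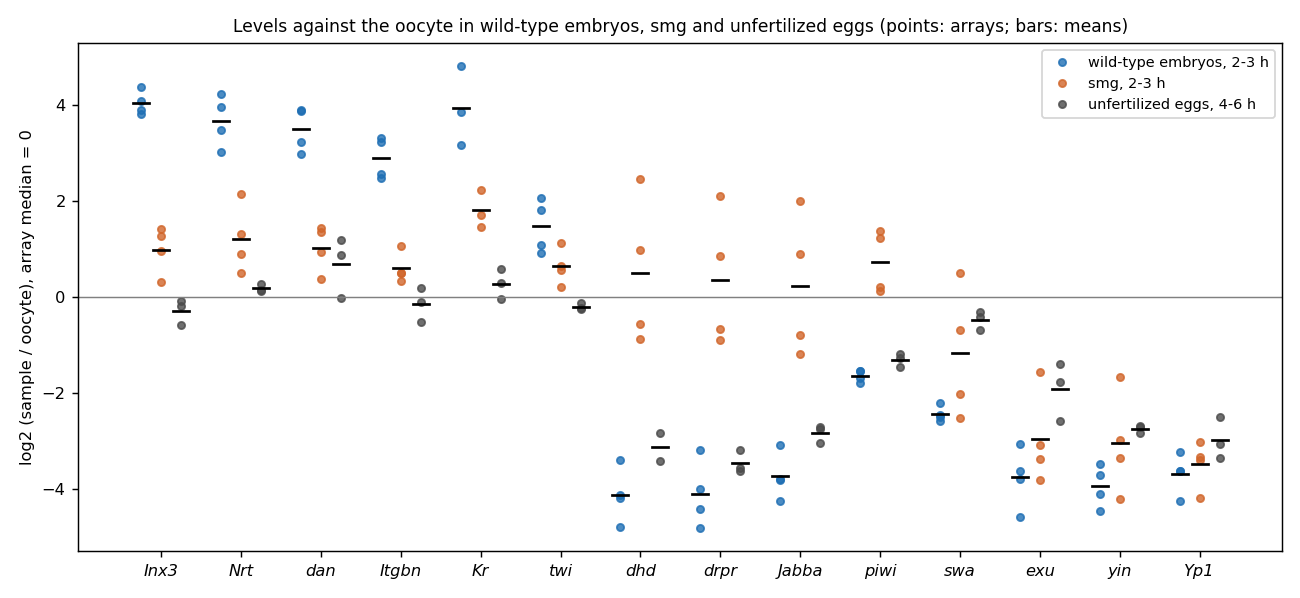
Log2 ratio over the oocyte for 14 genes, with wild-type embryos in blue, smg material in orange and unfertilized eggs in grey. Points are arrays (up to 4, 4 and 3) and bars are means, with the array median at 0. The risen genes on the left are highest in wild-type embryos, dhd, drpr, Jabba and piwi lie low in wild-type embryos, have smg means between 0.23 and 0.74 and lie low in unfertilized eggs, and Yp1, yin and exu have means of -1.91 or lower in all groups.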

How the data were processed

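The values are the authors' deposited log ratios, 1 column per array and 27648 spots, read here as log2 of sample over stage 14 oocyte. The direction was taken as likely from stage markers. Per the series design text, total RNA was reverse transcribed with random primers, labelled indirectly and hybridised to 12Kv1 arrays, images were quantified with QuantArray 3, and GeneTraffic Duo 3.2 normalised the ratios by rank-invariant LOWESS. The log base is not stated; it was taken as 2, since the lowest value, -11.92, lies beyond what a natural log of 16-bit signals allows (11.09). Intensities, flags and background filters were not used here, so precision is limited by the number of arrays.

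Of the spots 15116 had a single gene name in the platform annotation, giving 6793 genes, of which 6691 matched RefSeq symbols. In 90 of the 5365 tested genes with several spots the spots lay over 1 log2 apart. Spots were averaged per gene, each array's gene median was subtracted and genes with at least 3 arrays were tested with limma (version 3.58.1, lmFit and eBayes, under R 4.3.3; Python 3.11.15, pandas 2.3.3 and matplotlib 3.10.9 elsewhere). The prior had 7.40 degrees of freedom. Differences from smg and unfertilized eggs were fitted in the same way over both groups. On simulated data of 6328 genes the test recovered all changes of 3, and 90% to 92% of changes of 1.5, with 4 unchanged genes called. The simulated noise was normal and independent between genes, with its spread taken from the fit itself. Changes were placed at random genes, whereas in the real data falls were absent where replicate 1 had no value. The recovery therefore does not bear on the centring or on those genes.

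Groups follow the titles and source names. Genes named in the text are the 20 largest rises and 20 largest falls with a symbol and all arrays on 1 side, up to 6 called members of each of 52 lists (the 2 with the smallest p where fewer were called), and the stage markers; other members given as examples were chosen after their values were seen. Members and lists were chosen with earlier results of these data known. Alternatives covered the centring, scale, filter, spot averaging, moderation, array weights, the arrays in the fit, the slide set and each array left out. Sequences were not used here.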

Additional observations from a re-analysis of the deposited data

Results flagged for a closer look

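In 11 of the 162 named genes with 4 wild-type arrays, 1 array stood apart from the other three (Dixon's criterion). Chance flags about 1 in 20 such groups. On replicate 1 these were the adaptor gene Traf4 (4.71), the putative helicase gene Mov10 (-3.75), the torso receptor tor (-1.73), the splicing gene SmD1 (-0.41) and the nuclear pore gene Nup160 (1.49). On replicate 2 they were the origin recognition gene Orc4 (-1.65), the glycolytic Pgi (-2.42) and the coatomer subunit betaCOP (-1.18), and on replicate 4 the receptor 18w (2.34), the kinesin light chain Klc (-0.29) and the lipid droplet protein Lsd-2 (0.0209). None was on replicate 3.

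Among named genes 14 differed between wild-type embryos and smg (limma, adjusted p under 0.05). Wild-type minus smg was 3.05 for Inx3, 2.46 for Nrt, 2.47 for dan and 2.29 for Itgbn. It was -4.62 for dhd, -4.45 for drpr, -4.25 for del, -4.11 for Gcna, -3.96 for Jabba, -3.48 for Pxt, -3.22 for superdeath, -2.95 for pes, -2.44 for yl and -2.37 for piwi.

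Between wild-type embryos and unfertilized eggs 32 named genes differed. Embryo minus unfertilized was 5.51 for link, 4.32 for Inx3, 3.99 for Tom, 3.86 for Traf4, 3.72 for Sry-alpha, 3.71 for bnb, 3.66 for Kr, 3.49 for Nrt, 3.45 for Dtg and 3.45 for Elba3. It was 3.04 for Itgbn, 3.00 for Ppa, 2.92 for Ptr, 2.82 for dan, 2.53 for BNIP3, 2.47 for CNT1, 2.14 for Lac, 2.04 for Ance and 2.02 for corn. Smaller positive differences were 1.96 for mRpS34, 1.90 for dpn, 1.82 for danr, 1.82 for ush, 1.80 for nerfin-1, 1.68 for twi, 1.57 for nkd, 1.41 for hkb and 1.33 for Doc3. Negative ones were -1.96 for swa, -1.84 for exu, -1.39 for Tsp66E and -1.37 for nrv1.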

How the results depend on the processing

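No paired analysis was possible because the labels give no replicate numbers, and numbers here only name arrays. Of 750 calls in wild-type embryos (152 higher, 598 lower), the count was 0 without centring (233 unadjusted), 209 (52 and 157) with the 8 arrays at 2 to 3 h in 1 fit, 407 (81 and 326) with all 11 arrays, 1788 (584 and 1204) with array weights and 353 (33 and 320, of 3821 genes) on the earlier set of slides alone, the last chosen after seeing the data. Higher calls numbered 249 with the median over genes on all 4 arrays and 386 on the later set alone, also chosen after seeing the data. Leaving out 1 array gave 81 to 218 higher and 466 to 611 lower genes. All 52 and 157 calls of the 8-array fit were among the 152 and 598. Scaling, filters, spot medians, robust moderation and a slide set term kept the total within 1.5 times.

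Without centring the sign reversed for fkh (-0.13), sob (-0.20), mle (-0.73), zld (-0.69), Trl (-0.95), smo (-0.17), Psn (-0.22), tkv (-0.36), RpS28b (-0.40), mRpL51 (-0.26), Nup160 (-0.12), His2Av (-0.83), Ubc7 (-0.51), Helz (-0.50) and nSyb (-0.55). Dfd, at -0.07, became 0.0618 with the median over genes on all 4 arrays, 0.0597 with array weights, 0.0055 with the slide set term and between -0.23 and 0.17 when 1 array was left out. Trl, at 0.06, ran from -0.0125 to 0.15 when 1 array was left out and was -0.10 on the earlier slides, and His2Av, at 0.17, ran from -0.057 to 0.52 and was -0.24. None of these 3 passed the test of the report. The causes were not tested.

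Of 16 differences from smg (5 higher, 11 lower) 0 remained without centring (20 unadjusted). There were 71 (17 and 54) with all 11 arrays, 235 (21 and 214) with a slide set term, 2 (2 and 0) when the third smg array was given the opposite sign and 0 without both low-median arrays. Leaving out 1 array gave 0 to 209 in all, 0 to 21 higher and 0 to 188 lower. Of 68 differences from unfertilized eggs (58 higher, 10 lower) 0 remained without centring (38 unadjusted) and 19 (19 and 0) with all 11 arrays. Leaving out 1 array gave 24 to 113 in all, 22 to 94 higher and 2 to 19 lower.

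Among unnamed spots 0 passed without centring (277 unadjusted). The number of arrays and the missing spots of replicate 1 limit which genes can be called.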

Other observations

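Neighbouring genes of the annotation were compared as a description, with no test, and the examples were chosen after their values were seen. Among 3097 pairs of tested neighbours both genes rose in 5, both fell in 43 and the pair moved in opposite directions in 16. Of all members of these pairs 2.309% rose and 10.026% fell. A risen neighbour was present for 6.993% of the risen members, and a fallen neighbour for 13.849% of the fallen members. Whether pairs in opposite directions were more frequent than these shares would give was not tested, so the 16 are not read as an excess. The 5 pairs that rose together were insv and the Elba subunit gene Elba2 (1.30 and 1.07), the neighbouring Osi6 and Osi7 (1.31 and 1.32), the stress sensor gene Keap1 and the nuclear envelope gene kuk (1.45 and 1.27), Sry-alpha and Sry-beta (3.92 and 0.80), and Atg101 and bnb (1.35 and 3.89). In opposite directions moved the junction gene pyd (0.70) beside osk (-2.71), and Ppa (3.04) beside RYBP (-0.95). The labels do not say which strand a spot detects, so messages of overlapping neighbours cannot be told apart.

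Differences from unfertilized eggs also included genes outside the naming rule of the report. Chosen after their values were seen, the Vps50 trafficking gene averaged -1.42 in embryos and -0.18 in unfertilized eggs, the mitochondrial calcium uniporter gene MCU -1.05 in embryos and 0.13 in unfertilized eggs, and Ggt-1 -2.44 in embryos and -0.66 in unfertilized eggs, all 3 lower in embryos. With all 11 arrays in 1 fit no lower call was kept. Age, fertilization and dye differ between these groups and cannot be told apart.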
